A study of Mus musculus with 32 samples.

Results

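The Hippo pathway and the angiomotins were followed here through 10 genes, Amot, Amotl1, Amotl2, Lats2, Yap1, Wwtr1, Tead1, Vgll3, Ccn1 and Ccn2, of the 19938 genes that a probe set with a single symbol represents on the arrays. The genes were taken by symbol, with Ccn1 and Ccn2 also looked up under their earlier names Cyr61 and Ctgf, and all 10 were measured. Each had 1 probe set except Tead1, which had 2, and the brighter of these stands for Tead1 unless the other is named. All members passed the minimum linear signal of 50, the lowest value of any member in any array being 61.0. The set was chosen by name with earlier results of all comparisons of the same arrays in view, that is, the log2 values and differences given here, so for the members these are a description. No p-value of a member is given, and counts of members past a p threshold are a description too.

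In the Hippo pathway a cascade of kinases, which ends in Lats1 and Lats2, phosphorylates the co-activators YAP (Yap1) and TAZ (Wwtr1) and keeps them out of the nucleus. Unphosphorylated YAP and TAZ bind the TEAD transcription factors and raise genes such as Ccn1 and Ccn2, while Amotl2 and Lats2 are targets that in turn restrain the pathway's output. Angiomotins are scaffold proteins of cell junctions that bind YAP and TAZ directly, and Vgll3 is a cofactor that binds TEAD proteins in place of them. Tight junctions of Sertoli cells form the blood-testis barrier, and the gonadotropins LH and FSH act on Leydig and Sertoli cells through G-protein coupled receptors.

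Transcripts bound to ribosomes were compared with whole-testis RNA in male mice that carry a Cre transgene and the RiboTag allele, which adds a hemagglutinin (HA) epitope to a ribosomal protein in cells that express Cre. The AMH-Cre:RiboTag line tags Sertoli cells, the nurse cells of the seminiferous tubule. The Cyp17iCre:RiboTag line tags Leydig cells, which make testosterone between the tubules, and some tubule cells of this line also stained for HA in the study. The paper took these scattered cells to be Sertoli cells, because Sertoli transcripts were not depleted in the ribosome-bound RNA of this line. All mice of both lines were double heterozygotes. The study was of adult mice, and no exact age was given in the sources used here. Of the 32 arrays, the Sertoli line contributed 5 inputs and 5 anti-HA immunoprecipitates (IPs) after saline, and 2 IPs each after the GnRH antagonist acyline, acyline with FSH for 1 h, acyline with FSH for 4 h, the antagonist cetrorelix, and cetrorelix with testosterone. The Leydig line contributed 3 inputs and 3 IPs after saline, and 2 IPs each after acyline, acyline with LH for 1 h and acyline with LH for 4 h. GnRH antagonists, which lower the gonadotropins, were given daily for 4 days before LH and for 3 days before FSH or testosterone, and testosterone acted for 4 h. The study counts mice as n for the saline arrays of both lines and for the Sertoli hormone arrays, whose animals were picked by serum testosterone or FSH. For the Leydig hormone arrays the sources used here do not say whether an array is an animal, so their spread may be technical, and the Cre line and the batch of arrays cannot be told apart.

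Array medians lay between 6.36 and 6.50 on the log2 scale, with 21853 to 23063 probe sets above a linear signal of 50 per array. In the Sertoli IPs all 9 Sertoli markers were called higher than in input and all 5 measured Leydig markers lower. In the Leydig IPs all 5 Leydig markers were called higher. Of the Sertoli markers 1 of 9 was called higher there (Trf), and 8 of 9 lay above 0. The summed linear signal of the Sertoli markers was 12750 to 13689 in the Leydig saline IPs against 7258 to 7655 in their inputs. What part RNA of Sertoli cells has in the member values of the Leydig IPs was not tested. Of 6 peritubular myoid markers 5 lay below 0 in the IPs of each line (medians of -0.71 and -0.81, log2), with Acta2 and Actg2 called lower and Myh11 called higher in both. Their summed signal was 1919 to 2448 in Sertoli saline IPs against 3473 to 3730 in the inputs, and 1694 to 1912 against 3332 to 3581 in the Leydig line. In RNA of a whole testis or IP, more cells of a type and more RNA per cell cannot be told apart.

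The promoter windows of Amotl2, Vgll3 and Ccn1 are shown because Amotl2 and Vgll3 were the members called after LH and Ccn1 is a standard target of TEAD proteins. RefSeq promoter windows of GRCm38.p6, from 250 bases before to 50 bases after the start, were at hand for 8 of the 10 members, in 10 windows, and for neither Tead1 nor Ccn2. The core letters that TEAD proteins recognise, GGAATG or its reverse complement CATTCC, are in capitals.
Amotl2, chr9:102717554-102717853: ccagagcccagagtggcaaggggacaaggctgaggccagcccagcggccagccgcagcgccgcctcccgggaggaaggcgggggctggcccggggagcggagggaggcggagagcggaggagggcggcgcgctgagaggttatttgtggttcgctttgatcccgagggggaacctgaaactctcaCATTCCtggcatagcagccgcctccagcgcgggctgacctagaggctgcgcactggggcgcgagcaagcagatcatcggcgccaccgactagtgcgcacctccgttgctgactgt
Vgll3, chr16:65814939-65815238: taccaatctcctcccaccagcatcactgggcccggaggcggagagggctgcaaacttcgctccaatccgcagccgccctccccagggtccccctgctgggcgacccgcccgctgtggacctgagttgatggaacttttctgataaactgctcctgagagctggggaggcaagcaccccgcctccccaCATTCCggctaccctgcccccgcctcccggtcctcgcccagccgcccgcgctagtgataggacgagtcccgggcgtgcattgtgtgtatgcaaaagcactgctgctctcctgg
Ccn1, chr3:145649936-145650235: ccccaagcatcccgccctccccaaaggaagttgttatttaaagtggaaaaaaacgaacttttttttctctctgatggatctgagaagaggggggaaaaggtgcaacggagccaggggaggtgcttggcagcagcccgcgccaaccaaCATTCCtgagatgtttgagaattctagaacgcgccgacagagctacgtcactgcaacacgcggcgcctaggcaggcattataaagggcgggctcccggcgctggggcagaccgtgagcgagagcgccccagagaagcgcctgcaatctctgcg
Amotl2 (chromosome 9, plus strand), Vgll3 (chromosome 16, plus strand) and Ccn1 (chromosome 3, minus strand) each held these letters once, with the first letter at positions -65, -63 and -103 from the start. The letters occurred in windows of 6 of the 8 members, also Yap1, Wwtr1 and Lats2, and not in the windows at hand for Amot and Amotl1. Those windows end at 145487889 and 14615250, inside genes on the minus strand whose first bases are at 145505966 and 14662974. The Amotl2 window likewise begins at 102717554, inside a gene on the plus strand whose first base is at 102717091. Starts at those first bases were not searched. Of all 32851 RefSeq windows of this length, 14.7% held the TEAD letters on either strand, and 16.6% of the 27025 genes in the table had such a window. The full cyclic AMP response element TGACGTCA was in no member's window and in 1.79% of all windows. Its shortened form TGACG or CGTCA, which lies within the full element, was in windows of 4 members, Amot, Amotl1, Lats2 and Ccn1, and in 20.8% of all windows and those of 23.0% of all genes. A match of letters says nothing of binding, and no array measured it.

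**Figure D1:**
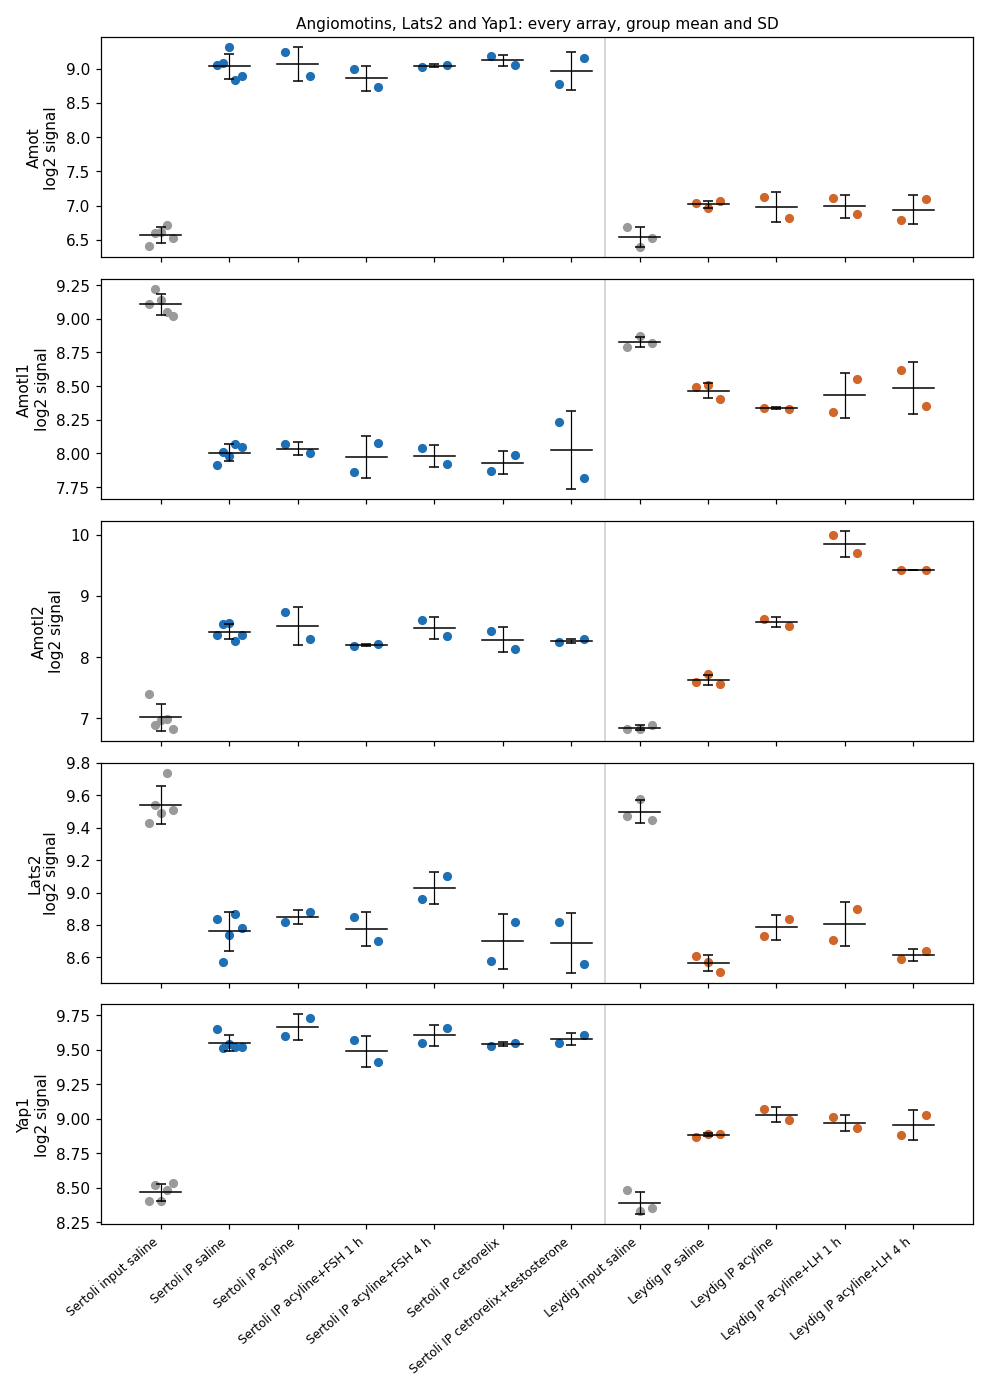
Log2 signal (y axis) of Amot, Amotl1, Amotl2, Lats2 and Yap1 in each group (x axis), with 1 point per array, the horizontal bar at the group mean and the error bar at 1 SD; grey points are inputs, blue points Sertoli IPs and orange points Leydig IPs. Amot was high in all Sertoli IPs (8.73 to 9.31), and Amotl2 lay between 7.57 and 7.72 in Leydig IPs after saline and was highest in the pair at 1 h of LH.

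Among the angiomotins, Amot had the largest rise over input in the Sertoli IPs. Its log2 signal was 6.41, 6.60, 6.61, 6.71 and 6.52 in the 5 Sertoli inputs and 9.05, 9.08, 9.31, 8.83 and 8.89 in the 5 saline IPs. Every IP lay above every input, a difference of 2.46 ± 0.09 (SE, log2), or 5.50-fold. In the Leydig line the inputs read 6.69, 6.40 and 6.52 and the IPs 7.04, 6.96 and 7.06, which did not overlap either but stood only 0.49 ± 0.09 (SE, log2) apart. The Leydig enrichment was thus lower than the Sertoli enrichment by 1.97 ± 0.14 (SE, log2), or 3.92-fold. Amot in the inputs of both lines was near the array medians of 6.36 to 6.50. The sizes of its rises over input, and of the line difference, are therefore uncertain. Amot is on chromosome X (145446424 to 145505966, GRCm38).

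Amotl1, a close relative at the junctions, ran the other way in the Sertoli line. Its Sertoli inputs ranged from 9.02 to 9.22 and its IPs from 7.91 to 8.07, lower by 2.15-fold with no overlap. Its 3 Leydig inputs (8.79 to 8.87) and 3 IPs (8.40 to 8.51) were 1.29-fold apart, so the loss was larger by 0.74 ± 0.09 (SE, log2) in the Sertoli line.

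Amotl2, a target of YAP and TAZ as well as a binding partner, was raised in the IPs of both lines. The Sertoli inputs read 7.40, 6.90, 6.98, 6.99 and 6.83 and the IPs 8.36, 8.54, 8.55, 8.27 and 8.37, a gap of 2.64-fold without overlap. The Leydig inputs read 6.83, 6.82 and 6.90 and the IPs 7.60, 7.72 and 7.57, a gap of 1.72-fold without overlap that was under the fold of 2 needed for a call. In the Sertoli IPs Amot and Amotl2 were thus higher, and Amotl1 lower, than in whole testis.

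Lats2, the kinase that phosphorylates YAP and TAZ, was lower in the IPs of both lines and was called in neither. Sertoli inputs were 9.43 to 9.74 and IPs 8.57 to 8.87, lower by 1.72-fold. Leydig inputs were 9.45 to 9.58 and IPs 8.51 to 8.61, lower by 1.91-fold. The enrichment of the lines differed by -0.15 ± 0.11 (SE, log2, Leydig minus Sertoli), the smallest line difference among the members.

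The co-activators YAP and TAZ were unlike each other. Yap1 read 8.40 to 8.53 in the Sertoli inputs and 9.51 to 9.65 in the IPs, higher by 2.12-fold, and 8.33 to 8.48 against 8.87 to 8.89 in the Leydig line, higher by 1.41-fold. Wwtr1 read 8.05 to 8.29 in the Sertoli inputs and 6.91 to 7.22 in the IPs, lower by 2.16-fold. For the Leydig line Wwtr1 was 8.10 to 8.21 in input and 7.87 to 8.01 in the IPs, lower by only 1.17-fold, and the lines differed by 0.88 ± 0.11 (SE, log2). None of these 4 pairs of groups overlapped.

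**Figure D2:**
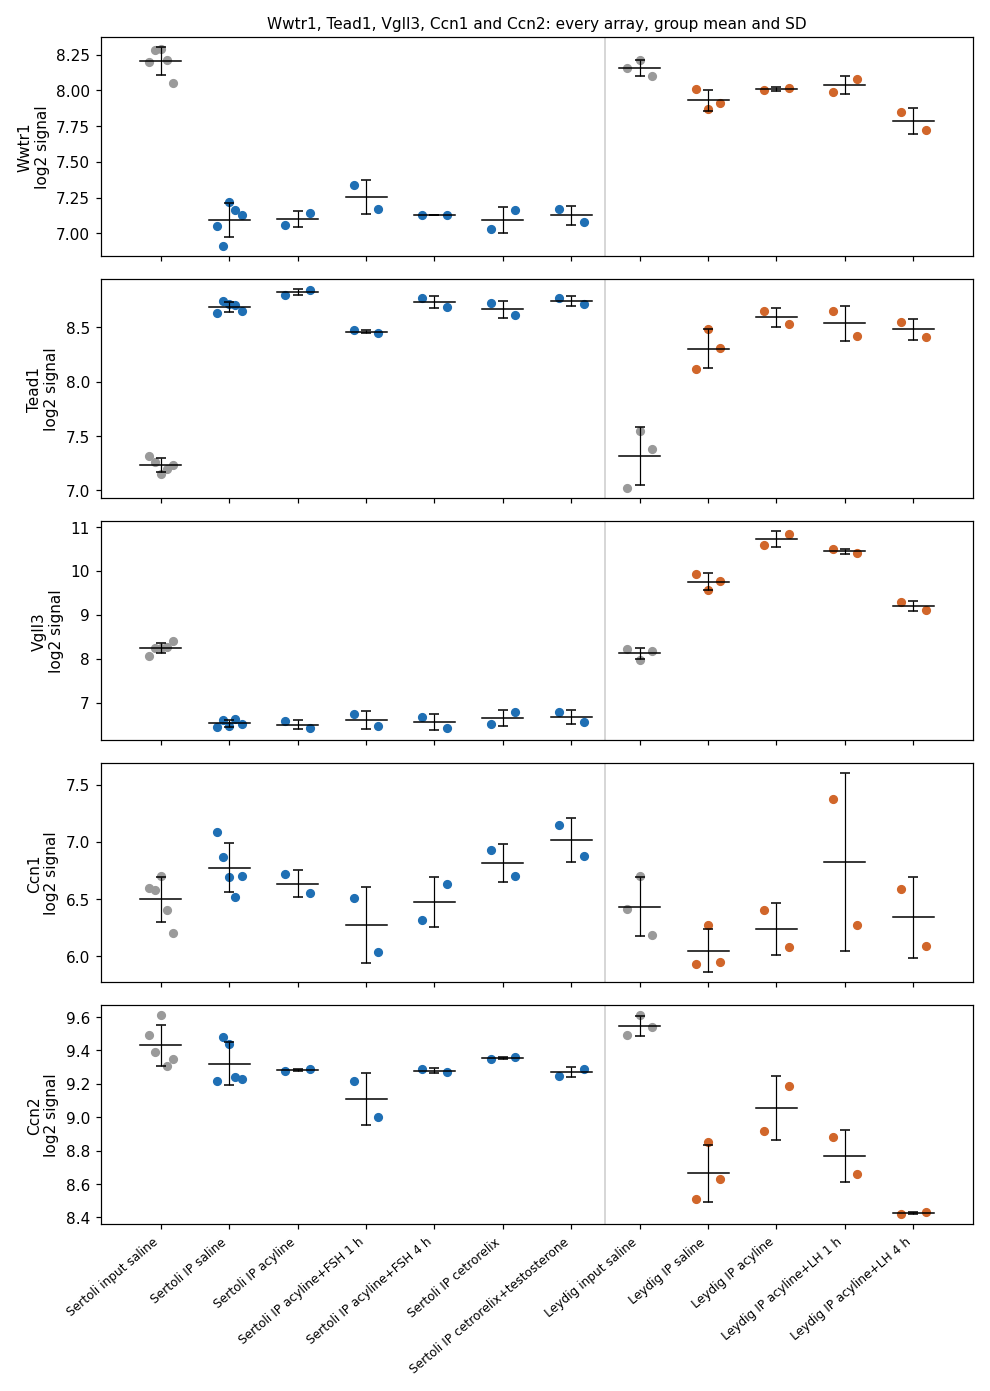
Log2 signal (y axis) of Wwtr1, Tead1, Vgll3, Ccn1 and Ccn2 in each group (x axis), with 1 point per array, the horizontal bar at the group mean and the error bar at 1 SD; grey points are inputs, blue points Sertoli IPs and orange points Leydig IPs. Vgll3 lay below 7 in all Sertoli IPs and above 9 in all Leydig IPs, and the pair of Ccn1 arrays at 1 h of LH lay far apart, at 7.37 and 6.27.

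Of the DNA-binding partner and its cofactor, Tead1 rose in the IPs of both lines and Vgll3 in the Leydig line. The brighter Tead1 probe set read 7.32, 7.26, 7.15, 7.20 and 7.23 in the Sertoli inputs and 8.63, 8.74, 8.71, 8.70 and 8.65 in the IPs, higher by 2.74-fold, and the dimmer probe set gave 2.67-fold. In the Leydig line it read 7.02, 7.55 and 7.38 against 8.12, 8.48 and 8.31, which was 1.98-fold with the brighter and 1.83-fold with the dimmer probe set. Both probe sets therefore stood just under the fold of 2 in the Leydig line, and no group overlapped.

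Vgll3 parted the lines more than any other member. Its log2 signal was 8.07, 8.24, 8.24, 8.26 and 8.40 in the Sertoli inputs and 6.45, 6.60, 6.46, 6.63 and 6.52 in the IPs, lower by 1.71 ± 0.07 (SE, log2), written as a fold 3.27. In the Leydig line it was 8.21, 7.98 and 8.17 in the inputs and 9.94, 9.57 and 9.76 in the IPs, higher by 1.63 ± 0.11 (SE, log2) or 3.10-fold. The inputs of the lines overlapped in range, while the IPs lay on opposite sides of them, and the enrichment differed by 3.34 ± 0.13 (SE, log2) or 10.1-fold. By size this difference was number 165 from the highest of 25524 probe sets. In the Sertoli IPs Vgll3 was near the array medians of 6.36 to 6.50, so the size of its fall there, and of the line difference, is uncertain.

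The secreted targets Ccn1 and Ccn2, matricellular proteins that are standard readouts of YAP and TAZ, were close to input in the Sertoli IPs. Ccn1 inputs (6.20 to 6.70) and IPs (6.52 to 7.09) overlapped, as did Ccn2 inputs (9.31 to 9.61) and IPs (9.22 to 9.48), with differences of 0.28 ± 0.12 and -0.11 ± 0.08 (SE, log2). Ccn2 was lower in the Leydig IPs (8.51, 8.85 and 8.63) than in the inputs (9.49, 9.61 and 9.54), by 1.84-fold. Ccn1 IPs (5.93, 6.27 and 5.95) and inputs (6.41, 6.70 and 6.19) overlapped. The Ccn1 signal was low in both lines, near the array medians of 6.36 to 6.50 and below them in the Leydig IPs, so little can be read from its differences.

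Counted together, 7 of the 10 members were called in the Sertoli line, 4 higher (Amot, Tead1, Amotl2, Yap1) and 3 lower (Vgll3, Wwtr1, Amotl1), where a call needed a fold of 2 and an adjusted p under 0.05 and 24.1% of all 24797 probe sets tested were called. Groups did not overlap for 8 members, against 59.1% of all probe sets. In the Leydig line 1 of 10 was called, Vgll3, against 21.7% of 24705, and groups did not overlap for 9 members, against 66.9%. Without Leydig input 2, input 3 or IP 1, Tead1 also passed the fold of 2 (log2 differences of 1.10, 1.02 and 1.08), which made 2 members called. Between the lines 2 of 10 differed by the call rule, Vgll3 and Amot, against 11.5% of 25524, and 9 of 10 at an adjusted p under 0.05 and any fold, against 35.5%. Since the members were chosen with these contrasts known, nothing is read from these shares.

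**Figure D3:**
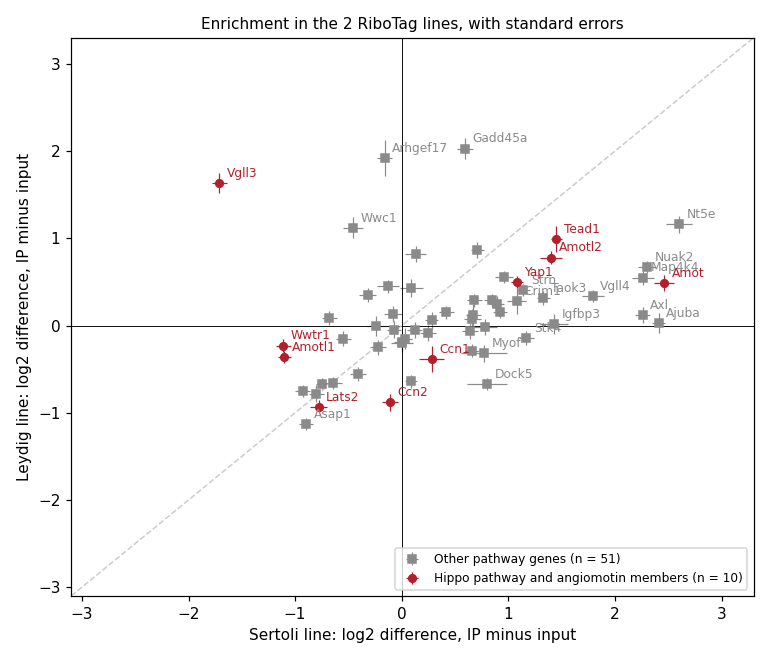
Log2 difference of IP minus input in the Sertoli line (x axis) and the Leydig line (y axis) for the 10 members (red circles) and 51 other pathway genes tested in both lines (grey squares), with standard errors as bars and equal enrichment on the dashed line. Vgll3 alone of the members lay at the upper left, at -1.71 and 1.63, and Amot lay far right of the dashed line, at 2.46 and 0.49.

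The wider pathway was described through 56 measured genes of 60 listed by role, kinases, upstream regulators, negative regulators, TEAD and Vgll partners, YAP targets and the CCN family. These lists too were chosen with earlier results of the same arrays known. The folds, counts and p-values of these genes, here and below, are therefore a description and not independent tests. Of the 52 tested in the Sertoli line 11 were called higher, where 12.4% of all probe sets were, and 0 lower, where 11.7% were. The largest were Nt5e, a cell-surface nucleotidase (6.08-fold, adjusted p = 2.82e-09 by limma), Ajuba, a LIM protein that restrains Lats kinases (5.33-fold, adjusted p = 8.21e-11 by limma), and Nuak2, a kinase that YAP induces (4.91-fold, adjusted p = 3.51e-10 by limma). Axl, a receptor tyrosine kinase (4.80-fold), Map4k4, a kinase upstream of Lats (4.80-fold), and Vgll4, a TEAD cofactor that opposes YAP (3.46-fold), followed. The median log2 difference of the 52 was 0.35, against -0.03 for all probe sets tested. Of 14 other YAP targets tested there, 5 were called higher (Nt5e, Nuak2, Axl, Igfbp3 and Crim1), 9 were not called and 3 lay below 0, and nothing is read from this count for YAP targets as a group.

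In the Leydig line 5 of 52 pathway genes were called, 4 higher, where 11.0% of all probe sets were, and 1 lower, where 10.7% were. Gadd45a, a growth arrest gene, was 4.07-fold higher, Arhgef17, a guanine nucleotide exchange factor, 3.77-fold, Nt5e 2.23-fold and Wwc1 (Kibra), an upstream activator of Lats, 2.17-fold. Asap1, a GTPase-activating protein, was 2.19-fold lower. Adjusted p values of these 5, by limma, ran from 3.92e-06 for Gadd45a to 8.70e-05 for Wwc1. The median was 0.08 against -0.03 for all probe sets tested.

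The enrichment itself differed between the lines for 14 of 53 pathway genes, 3 with the higher value in the Leydig line (5.48% of all probe sets) and 11 with the higher value in the Sertoli line (5.98%). Ajuba (lower in the Leydig line by 5.22-fold, adjusted p = 3.34e-10 by limma) and Axl (lower by 4.41-fold, adjusted p = 3.27e-10 by limma) led one side, with Map4k4 (3.27-fold) and Nuak2 (3.09-fold) behind them. Arhgef17 (4.20-fold, adjusted p = 3.01e-07 by limma) and Wwc1 (2.99-fold, adjusted p = 6.66e-07 by limma) led the other. Of the TEAD cofactors, Vgll4 had the lower enrichment in the Leydig line (2.73-fold) and Vgll3 the higher.

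Loss of gonadotropins in the Leydig line moved Amotl2 and Vgll3. Amotl2 read 7.60, 7.72 and 7.57 in the 3 saline IPs and 8.63 and 8.51 in the 2 acyline IPs, higher by 0.94 ± 0.11 (SE, log2), or 1.92-fold. Vgll3 read 9.94, 9.57 and 9.76 after saline and 10.60 and 10.85 after acyline, higher by 0.97 ± 0.13 (SE, log2), or 1.96-fold. In both the groups did not overlap. These 2 were the members called at a fold of 1.5 and an adjusted p under 0.05, where 0.143% of all 24461 probe sets were called and 0.0327% were called higher. Both calls were lost with any 1 of the 5 arrays left out, at differences of 0.88 to 1.00 for Amotl2 and 0.85 to 1.09 for Vgll3. The Leydig marker sum moved the other way, from 33650 to 34716 after saline to 24850 to 27955 after acyline, and its part in the result was not tested.

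In the other 8 members the difference after acyline ran from -0.13 (Amotl1) to 0.39 (Ccn2) on the log2 scale. Groups did not overlap for 7 of the 10 members, against 37.5% of all probe sets. The median of the members was 0.21, against 0.01 for all probe sets. In the Sertoli IPs, acyline changed Vgll3 by -0.04 ± 0.11 and Amotl2 by 0.09 ± 0.13 (SE, log2), with overlapping groups. The acyline effect was larger in the Leydig line by 1.01 ± 0.17 (SE, log2) for Vgll3, the only member called in this contrast (0.0669% of 25399 probe sets called), and by 0.85 ± 0.18 for Amotl2, which was not called. The Vgll3 call was lost without Sertoli acyline IP 1 or 2, Sertoli saline IP 2, 3, 4 or 5, Leydig acyline IP 2 or Leydig saline IP 3, each left out alone, with the difference between 0.89 and 1.13 over all 12 such fits. Without Sertoli acyline IP 1, Amotl2 (1.07) was called in its place. The Vgll3 call was also lost without Sertoli saline IPs 4 and 5 together (0.98).

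LH given after acyline raised Amotl2 further. Its log2 signal was 8.63 and 8.51 after acyline, 9.997 and 9.700 at 1 h of LH and 9.42 and 9.42 at 4 h. No array of these 3 groups overlapped with another group's, so Amotl2 was highest at 1 h, lower at 4 h, and at 4 h still above acyline and above all saline IPs. The rise was 1.28 ± 0.12 (SE, log2) at 1 h, or 2.43-fold, and 0.85 ± 0.12 at 4 h, or 1.80-fold, while the step from 1 h to 4 h was -0.43 ± 0.12 and was not called. At 1 h Amotl2 was the only member called, where 0.00818% of probe sets were, which is 2 of 24461. The call at 1 h was lost without acyline IP 1, acyline IP 2 or LH 1 h IP 1, and the difference was 1.13 to 1.43 over the 4 fits that each left out an array.

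Vgll3 went down late. It read 10.60 and 10.85 after acyline, 10.49 and 10.40 at 1 h of LH, and 9.29 and 9.12 at 4 h. The 1 h arrays lay just under the acyline arrays (-0.28 ± 0.14, SE, log2), and the 4 h arrays lay below every other Leydig IP, the saline ones included. The fall was 1.52 on the log2 scale (SE 0.14, 2.88-fold) from acyline to 4 h and 1.25 (SE 0.14, 2.38-fold) from 1 h to 4 h. By size the former was number 14 from the lowest of 24461 probe sets. The contrasts with acyline share the acyline arrays, and those at 4 h the 4 h arrays. The Leydig marker sum was 25528 to 28295 at 1 h and 32402 to 39808 at 4 h, and the Sertoli marker sum of the same IPs 12684 to 13417 and 11928 to 12749. Their part in the result was not tested.

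**Figure D4:**
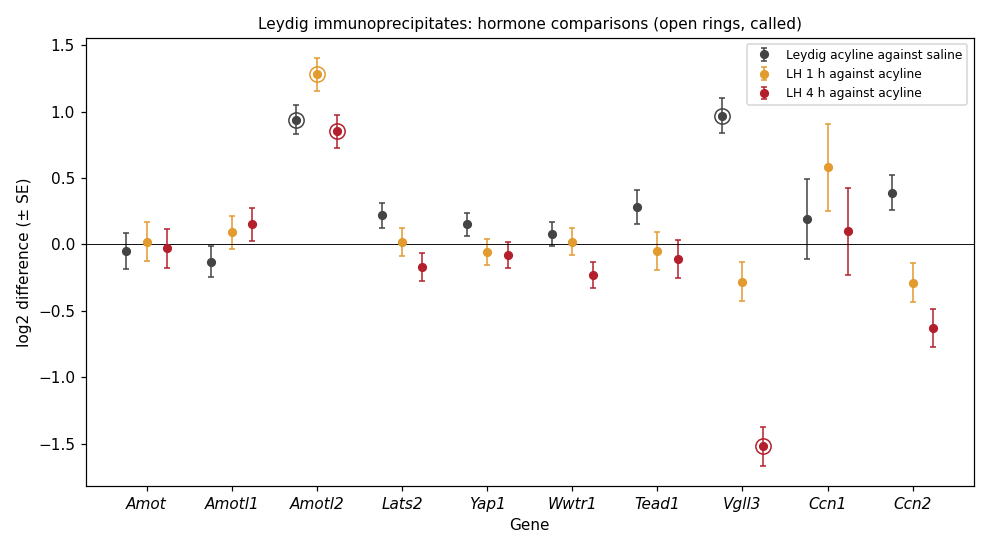
Log2 difference with its standard error (y axis) for each member (x axis) in 3 comparisons among Leydig IPs, acyline against saline (dark grey), LH 1 h against acyline (orange) and LH 4 h against acyline (red), with rings around values that met the call rule. Amotl2 stood above 0 in all 3 (0.94, 1.28 and 0.85), and Vgll3 went from 0.97 through -0.28 to -1.52.

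At 4 h the members called were Vgll3, lower, and Amotl2, higher, where 0.613% of all probe sets were called, 60 higher (0.245%) and 90 lower (0.368%). With arrays centred on their medians the split over all probe sets was 157 higher and 76 lower, and with quantile normalization 28 and 62. Vgll3 and Amotl2 kept their direction under both. Between 4 h and 1 h Vgll3 was the member called, where 0.200% of probe sets were, 10 higher and 39 (0.159%) lower (15 and 27 with centred arrays). With single arrays left out, the Amotl2 call at 4 h held only without LH 4 h IP 2 (differences of 0.79 to 0.91), and the Vgll3 call at 4 h held without LH 4 h IP 2 or acyline IP 1 (-1.65 to -1.40). The Vgll3 call between 4 h and 1 h held only without LH 4 h IP 2 (-1.33 to -1.16).

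Ccn1 and Ccn2 were not called at either time. Ccn2 read 8.92 and 9.19 after acyline, 8.88 and 8.66 at 1 h and 8.42 and 8.43 at 4 h, and its difference at 4 h was -0.63 ± 0.15 (SE, log2), without overlap and not called. Ccn1 read 6.40 and 6.08 after acyline, 7.37 and 6.27 at 1 h and 6.59 and 6.09 at 4 h, and the value at 1 h (0.58 ± 0.33, SE, log2) rested on a single array. Wwtr1 was 8.001 and 8.022 after acyline and 7.85 and 7.72 at 4 h, lower by 1.17-fold and not called. The differences of Amot, Amotl1, Yap1 and Tead1 lay between -0.11 and 0.15 in both LH contrasts, and those of Lats2 were 0.02 and -0.17. The dimmer Tead1 probe set differed by -0.14 ± 0.14 at 1 h and -0.19 ± 0.14 at 4 h (SE, log2). Groups did not overlap for 3 members at 1 h and 6 at 4 h, against 37.0% and 50.5% of all probe sets.

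None of the 52 other pathway genes tested was called after acyline, at 1 h or at 4 h of LH, or between 4 h and 1 h, by limma. At an unadjusted p under 0.05 there were 10, 3, 12 and 8 of them, where 13.7%, 6.06%, 18.3% and 16.1% of all probe sets were. The contrast test of the study's methods without adjustment called 1, 1, 3 and 2 of them. Over all 24461 probe sets that test called 581, 164, 699 and 590, and nothing is read from these counts. It was run here as the contrast alone, without the ANOVA that the methods put before it. These are thus not the study's own counts, which were smaller at 1 h and at 4 h of LH. The medians of the 52 pathway genes were 0.11, -0.02, -0.09 and -0.01, against medians of all probe sets between 0.00 and 0.01 in size.

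In the Sertoli IPs no member was called in any hormone contrast by limma, and the contrast test of the methods, without adjustment, called none either. The background was 0.00406% after acyline, 0.0122% after cetrorelix, 0.00406% for testosterone against cetrorelix, 0% at 1 h of FSH (0 of 24648 probe sets) and 0.0203% at 4 h. At an unadjusted p under 0.05 there was 1 member, Tead1 at 1 h of FSH, where 9.43% of all probe sets (2324) were. Tead1 read 8.80 and 8.84 after acyline, 8.47 and 8.45 at 1 h of FSH and 8.77 and 8.69 at 4 h. The arrays at 1 h lay below all other Sertoli IPs, by 0.35 on the log2 scale (SE 0.07) from acyline, and the dimmer probe set differed by -0.16 ± 0.11 (SE, log2).

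Differences of the members ran from -0.14 to 0.13 after acyline, from -0.14 to 0.12 after cetrorelix, from -0.16 to 0.20 with testosterone, from -0.36 to 0.16 at 1 h of FSH and from -0.16 to 0.18 at 4 h. At 1 h of FSH 6 of 10 members did not overlap with acyline, where 46.9% of all probe sets did not. Below 0 were 8 of 10 members, 36 of 51 other pathway genes and 12729 of all 24648 probe sets. Cell type markers differed in the same arrays, 8 of 9 Sertoli markers being below 0 (median -0.16, log2) and 6 of 6 markers of spermatogonia and spermatocytes above 0 (median 0.47), with none called. The Sertoli marker sum was 26603 to 27254 after acyline and 24951 to 25558 at 1 h of FSH, and the sum for spermatogonia and spermatocytes 968 to 1099 and 1280 to 1815. Their part in the result was not tested. Amotl2 was 8.73 and 8.29 after acyline and 8.19 and 8.21 at 1 h of FSH, lower by 1.24-fold and not called. None of the 51 pathway genes tested was called in these 5 contrasts by limma, with 4, 1, 2, 9 and 2 at an unadjusted p under 0.05 (5.01%, 4.99%, 5.01%, 9.43% and 4.40% of all probe sets). The contrast test of the methods without adjustment called 0, 1, 2, 1 and 0 of them, and 113, 95, 157, 318 and 151 of all 24648 probe sets. For Myof, a YAP target of the lists used here, the paper reports a rise on polysomes after testosterone, also measured by qRT-PCR.

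Over the 12 group means, the transcripts whose pattern was most like that of a member were looked up among 16068 genes. For Amot these were Tnik, Pkn2 and Mboat2 (Pearson r of 0.999 each), for Vgll3 Gramd1b, Ppp1r9b and Nr2f2 (0.993, 0.989 and 0.989), for Amotl2 Mtfp1, Ier3 and Rpl9 (0.946, 0.938 and 0.924), and for Ccn1 Fbxw17, Ahr and Creb1 (0.815, 0.803 and 0.802). The Rpl9 probe set is uncertain, since ribosomal protein genes have many near-identical copies. The points share the RMA run and the contrast of IP with input, so these values describe the arrays only.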

How the data were processed

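RNA of testis input and anti-HA immunoprecipitates was hybridised to Affymetrix Mouse Gene 1.0 ST arrays. RMA was run by the authors, who deposited log2 signals of 35556 probe sets, the version of RMA not being given in the sources used here. All deposited columns were used. Samples were grouped by their titles, and 4 cetrorelix arrays whose source label reads input were taken as IPs, as their title and sample type say. Of the probe sets, 21789 carry 1 gene symbol in GEO's platform table, 1621 carry several and 12146 are not listed there or have no symbol. A gene was represented by its probe set of highest mean over all 32 arrays.

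The members, the pathway lists and the marker lists were chosen with earlier results of these data known. Every member is named, and of the other pathway genes those with the largest folds among the called, at most 6 a comparison (Igfbp3 and Crim1, beyond these 6, were named after their values were seen). Patterns of like genes were ranked by Pearson's r over 12 group means among genes above 50 in at least 1 array.

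Differences were fitted with limma 3.58.1 in R 4.3.3 on all probe sets above a linear signal of 50 in at least 1 array of the fit. Enrichment was fitted within each line, hormone contrasts among all IPs of a line, and differences between lines as interactions. The Benjamini-Hochberg adjustment was made over all probe sets of a comparison. Calls required a fold of 2 (enrichment) or 1.5 (between IPs) together with an adjusted p below 0.05. Standard errors are those of the moderated fit, and the number of arrays limits the precision. The procedure was tested on simulated data with independent noise and shifts of 1.5 and 2 on the log2 scale. Smaller shifts, the size of most hormone differences called here, were not simulated. Promoter windows and gene coordinates came from RefSeq (GRCm38.p6), with motif letters searched on both strands in Python 3.11.15. The alternatives tried were no signal minimum, median-centred and quantile-normalised arrays, the contrast test of the methods with and without adjustment, fits of only the groups compared, a replicate block, all probe sets of a gene averaged, Sertoli saline IPs 4 and 5 left out, and each array left out in turn. The contrast test of the methods was run as the contrast alone, without the ANOVA that the study ran before it. A block with crossed replicate numbers was added after seeing the data.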

Additional observations from a re-analysis of the deposited data

Results flagged for a closer look

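Single arrays stood apart from the others of their group of 5 in 2 of 22 such groups of member probe sets, where chance gives about 1 in 20. Amotl2 read 7.40 in Sertoli input 1 against 6.83 to 6.99 in the other 4, and Yap1 read 9.65 in Sertoli saline IP 1 against 9.51 to 9.54 in the other 4.

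The enrichment in IP over input differed between the lines, at an adjusted p under 0.05 by limma's interaction contrast, for 9 of 10 members, where 35.5% of all probe sets did. The Leydig minus Sertoli differences were 3.34 (Vgll3), 0.88 (Wwtr1), 0.74 (Amotl1), -0.46 (Tead1), -0.58 (Yap1), -0.62 (Amotl2), -0.66 (Ccn1), -0.78 (Ccn2) and -1.97 (Amot) on the log2 scale. The members were chosen with this contrast known. Of the other pathway genes, the 6 with the largest such differences were Ajuba (-2.38), Axl (-2.14), Arhgef17 (2.07), Map4k4 (-1.71), Nuak2 (-1.63) and Wwc1 (1.58). The acyline effect of Vgll3 also differed between the lines, by 1.01 on the log2 scale.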

How the results depend on the processing

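Of 1950 member differences recomputed under alternatives, 1884 moved by less than 1 replicate SD and 66 by more, the largest shift being 0.56 on the log2 scale, and 0 called values changed sign. Of 390 counts of called genes, 329 stayed within 1.5 times. Enrichment kept its counts within that range, apart from Leydig members called, which were 1 to 2 with an array left out. The hormone calls were less stable, and their cause was not tested.

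Members called after acyline (2), at 1 h of LH (1), at 4 h (2), between 4 h and 1 h (1) and in the line difference of the acyline effect (1) became 0, 0, 1, 0 and 0 with no signal minimum and 0 in all 5 with the methods' test after adjustment. Fits of only the groups compared gave 0 at 1 h, 0 at 4 h and 0 between them. The line difference had 2 members with quantile normalization (27 of 25381 probe sets called), 2 with the methods' unadjusted test (479 of 25399) and 0 without Sertoli saline IPs 4 and 5. Leaving out single arrays gave 0 to 0, 0 to 1, 0 to 2, 0 to 1 and 0 to 1 members in the same order.

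Other pathway genes called, 0 in every hormone contrast, became with the methods' unadjusted test 1 after acyline, 1 at 1 h of LH, 3 at 4 h, 2 between them, 1 after cetrorelix, 2 with testosterone, 1 at 1 h of FSH and 3 in the line difference. Over all probe sets that test called 581, 164, 699, 590, 95, 157, 318 and 479 in the same order. The pathway genes called were 1 between 4 h and 1 h with quantile normalization, 1 in the line difference with only its groups, and 1 after cetrorelix without Sertoli saline IPs 4 and 5. Leaving out single arrays gave 0 to 1 between 4 h and 1 h, 0 to 1 after cetrorelix and 0 to 1 in the line difference.

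Inputs and IPs were taken from testis homogenates, and the paper set the IPs against their respective inputs. No source used here ties an input to an IP by its number. Deviations of same-numbered inputs and IPs correlated at only -0.035 to 0.149, so whether the numbers pair the arrays was not settled. Between the groups of the hormone contrasts the correlations of same-numbered arrays ran from -0.165 to 0.120. For IP against input a replicate block left the members called at 7 and 1, the pathway genes at 11 and 5, and 2 and 14 in the difference between lines. In the hormone contrasts it gave 0 members after acyline, at 1 h and 4 h of LH, between them and in the line difference, and 1 pathway gene after cetrorelix, with calls over all probe sets going from 35 to 0, from 2 to 0, from 150 to 4, from 49 to 2 and from 17 to 5. The crossed replicate block, chosen after seeing the data, gave 0 members and 9 calls in all at 4 h of LH and 1 call in all with testosterone. The hormone fits have 2 arrays in a treated group, which limits what they can show.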
